A study of Daphnia magna with 9 samples.

Results

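The ferritin genes of Daphnia magna were taken as every gene ID of the deposited gene table whose gene name contains the word ferritin, which gave 11 of 42462 gene IDs. These 11 gene IDs carried 14 features, since 3 of them were split into several, and the feature with the highest mean read count stood for each gene. RNA was sequenced from whole females of the NIES strain (wild type) and of a DNMT3.1 mutant, in 3 groups of 3 libraries. The groups were wild type in the starved condition, mutant in the starved condition and mutant in the nutrient rich condition. All daphnids were 12 days old and had produced their second clutch, 5 of them were pooled in a library, and eggs were removed before extraction. They were fed Chlorella algae, at 51200000 cells a day for each daphnid in the nutrient rich condition and 6400000 in the starved condition. The mutant is a single line with frameshift mutations made by CRISPR/Cas9 in both alleles of DNMT3.1, a member of the DNA methyltransferase 3 family. Its DNMT3.1 transcript is still counted. Wild type daphnids in the nutrient rich condition were not analysed here, so the effect of food on the wild type cannot be read from these libraries.

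Ferritins are proteins that assemble into a hollow shell in which cells keep iron in a stored, harmless form. Heavy chains carry the ferroxidase centre that oxidizes ferrous iron as it enters the shell, whereas other subunits help to lay down the iron core. In insects, many ferritins carry a signal peptide, pass through the secretory pathway and occur in the gut and the hemolymph, where they also take part in the transport and excretion of dietary iron. In vertebrates and insects the translation of ferritin mRNA can be held back by iron regulatory proteins, so that an mRNA level is not a protein level.

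By name, the 11 genes fell into 4 kinds. Ferritin heavy chain was the name of Dapma7bEVm005357t1 and Dapma7bEVm004414t1. Dapma7bEVm010891t1 was named Ferritin subunit precursor. Dapma7bEVm001658t1, Dapma7bEVm005779t1, Dapma7bEVm007877t1, Dapma7bEVm008418t1 and Dapma7bEVm015553t1 were each named ferritin 3-like protein. The remaining 3 (Dapma7bEVm023763t1, Dapma7bEVm024434t1 and Dapma7bEVm030649t1) were named Ferritin-like protein. The first 3 kinds, 8 genes, were annotated in the table with ferroxidase activity, the Golgi apparatus and the intracellular ferritin complex. The 3 genes named Ferritin-like protein had none of these terms and were annotated with DNA integration instead. They match by name, and whether they encode ferritins was not tested. Ferric iron binding was annotated to 10 of the 11 genes, a cellular response to iron ion starvation to 7, and detoxification of iron ion to Dapma7bEVm010891t1 alone. The feature IDs of Dapma7bEVm004414t1, Dapma7bEVm005357t1 and Dapma7bEVm010891t1 share the code sc01361, and those of Dapma7bEVm001658t1, Dapma7bEVm007877t1, Dapma7bEVm008418t1 and Dapma7bEVm030649t1 share sc02545. The sources used here do not give the meaning of the code. Nor do they give how reads that fit several ferritin copies were counted, so values of closely related copies are uncertain to that extent.

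Each library held 9270993 to 11806614 counted reads. Nutrient-rich mutant replicate 2 stood apart from the other libraries, because 19.5% of its reads fell in its 10 largest features, against 8.60% to 12.9% elsewhere. Its log2 levels over all genes correlated with those of the other nutrient-rich mutant libraries at r = 0.893 and 0.908, and these with each other at 0.956. Calls of ferritins against the nutrient-rich mutant, and counts of called iron genes, are given with and without it. Markers of yolk, gut, muscle, hemocytes, neurons and germ line were present in all libraries, as in whole bodies. Triplicates came from 3 repeats of each treatment, and whether the repeats were kept as separate cultures over time is not given. The p-values therefore set group differences only against the spread between these libraries.

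Expression of the ferritins was unequal. Of the 11 genes, 6 passed the count filter, and each of these had at least 29 reads in every library. Another 3 genes (Dapma7bEVm004414t1, Dapma7bEVm023763t1 and Dapma7bEVm024434t1) had 0 reads in all 9 libraries, which, at a floor of 3 reads over all 92793103 reads, allows a level of up to 0.0323 CPM (counts scaled to library size). Intervals and floors here cover counting error only. The last 2 genes had few reads. Dapma7bEVm008418t1 had 6 reads in all, 3 in starved wild types, 3 in starved mutants and 0 in nutrient-rich mutants. Dapma7bEVm030649t1, of the DNA integration kind, had 17 reads, and they were absent from the starved wild type. Of the 3 genes of that kind, 0 passed the count filter.

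Ferritin-like Dapma7bEVm030649t1 had 0 reads in each starved wild type library, 3, 4 and 4 in starved mutant replicates 1 to 3, and 5, 1 and 0 in nutrient-rich mutant replicates 1 to 3. The 11 reads of the starved mutant have an exact Poisson 95% interval of 5.49 to 19.7. Against a floor of 3 reads over the starved wild type group, its level in starved mutants was 3.15-fold higher from the 11 reads and at least 1.57-fold higher from the low end of that interval. It was below the count filter, and with every feature of at least 1 count in the fit its edgeR adjusted p was 0.199, so the difference did not pass the test.

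Levels between genes are compared here in RPKM, the authors' deposited level scaled for feature length and library depth. It is not the deposited count rescaled throughout, since 14643 of 242776 values with reads have an RPKM of 0. Ferritin subunit precursor Dapma7bEVm010891t1 had the highest mean RPKM over the 9 libraries of the 11 genes, above 97.6% of all features tested. It was followed by the ferritin 3-like genes Dapma7bEVm005779t1 (above 96.0% of features) and Dapma7bEVm015553t1 (92.0%), heavy chain Dapma7bEVm005357t1 (84.3%), and the ferritin 3-like genes Dapma7bEVm007877t1 (82.2%) and Dapma7bEVm001658t1 (76.8%). In the starved wild type, the RPKM was 249.6 ± 83.3 (SD, n = 3) for Dapma7bEVm010891t1 and 176 ± 1.98 for Dapma7bEVm005779t1, and the libraries of these neighbours overlapped. Below them came 68.1 ± 2.09 for Dapma7bEVm015553t1, 21.7 ± 3.81 for Dapma7bEVm001658t1, 21.3 ± 10.1 for Dapma7bEVm007877t1 and 12.2 ± 4.12 for Dapma7bEVm005357t1. Of these 4, only Dapma7bEVm015553t1 was separated from the gene after it by more than the spread between replicates.

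This order was not the same in the other groups. In the starved mutant, ferritin 3-like Dapma7bEVm005779t1 led with an RPKM of 179 ± 23.3, above Dapma7bEVm010891t1 with 99.5 ± 42.2 in every library, in turn followed by Dapma7bEVm015553t1 with 69.2 ± 6.57. Below them came Dapma7bEVm001658t1 with 22.5 ± 2.66, Dapma7bEVm007877t1 with 11.9 ± 4.33 and, last of the 6, heavy chain Dapma7bEVm005357t1 with 4.07 ± 1.49. Apart from Dapma7bEVm010891t1 and Dapma7bEVm015553t1, neighbours in this order did not overlap in RPKM. In the nutrient-rich mutant, Dapma7bEVm010891t1 led with 394 ± 220.1, and Dapma7bEVm005357t1 had 72.4 ± 22.9, beside Dapma7bEVm005779t1 with 56.9 ± 34.1. Dapma7bEVm015553t1 had 46.6 ± 19.6, Dapma7bEVm007877t1 44.2 ± 11.5 and Dapma7bEVm001658t1 12.8 ± 4.95. From the heavy chain down to Dapma7bEVm007877t1 neighbours overlapped, whereas Dapma7bEVm001658t1 lay below them in every library.

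For comparisons between groups, levels are in CPM, the deposited counts scaled to library size with TMM factors. A gene counted as higher or lower (called) with an edgeR adjusted p under 0.05 over all 18675 tested features and a change of 1.5-fold or more, which are the thresholds used in the study. In these bulk libraries, fewer cells of a type and less RNA per cell cannot be told apart.

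**Figure D1:**
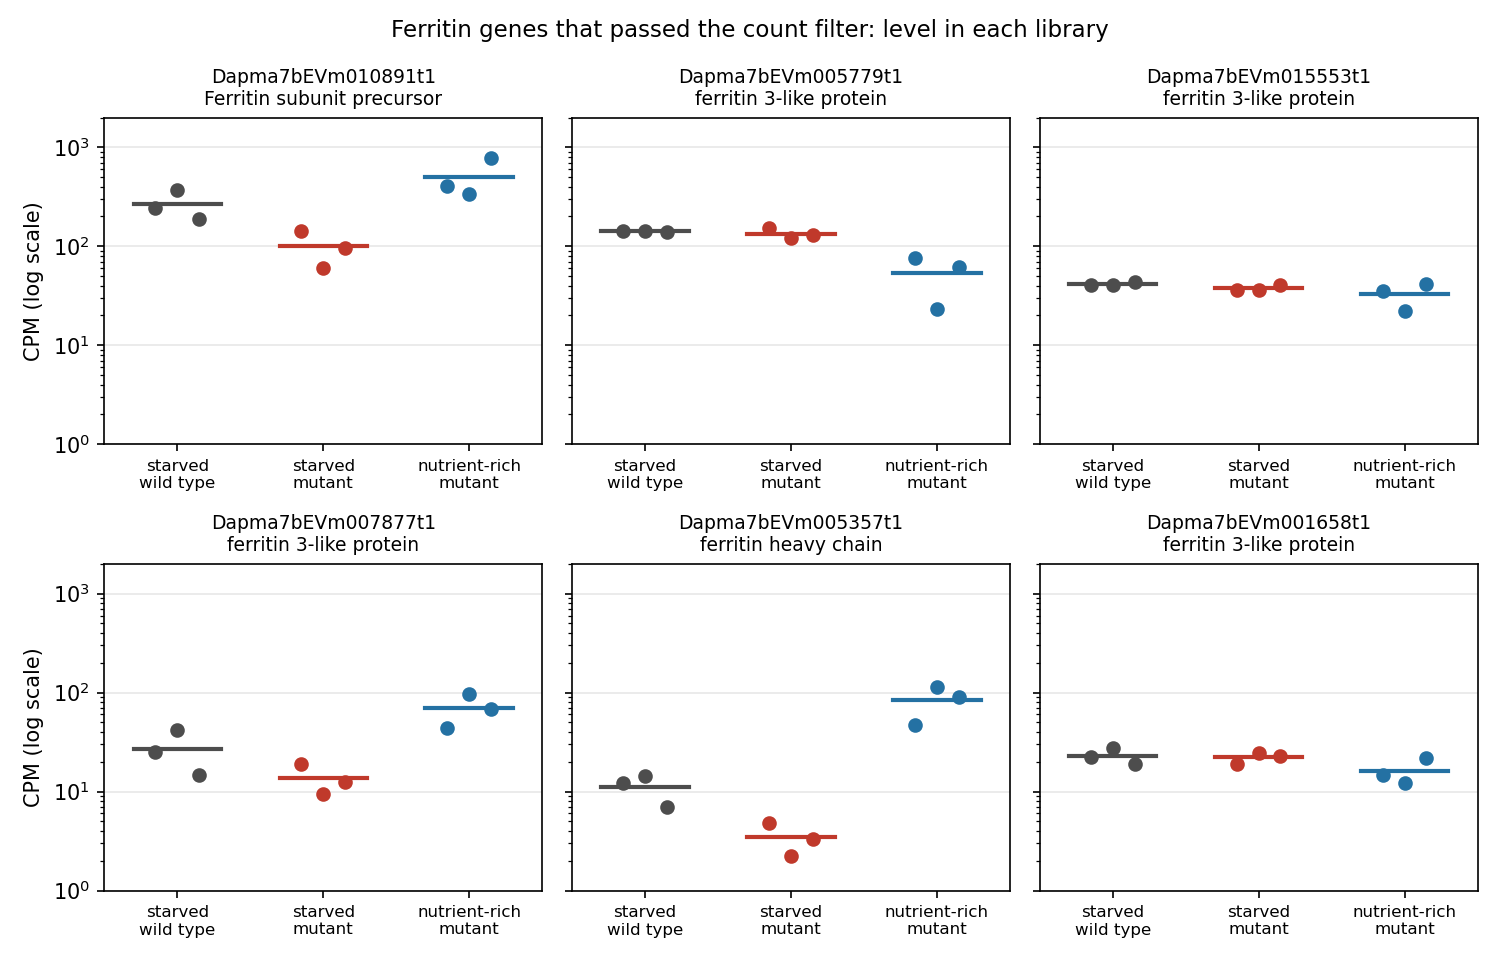
CPM on a log scale of the 6 ferritin genes that passed the count filter, 1 panel a gene, with 1 point a library and a bar at the mean of each group of 3 libraries. Heavy chain Dapma7bEVm005357t1 runs from 2.23 CPM in a starved mutant library to 114 in a nutrient-rich mutant library, while Dapma7bEVm015553t1 and Dapma7bEVm001658t1 stay within a narrow band.

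Ferritin heavy chain Dapma7bEVm005357t1, the only gene of that name with reads, showed the widest range. Its level was 12.2, 14.2 and 6.94 CPM in starved wild type replicates 1 to 3 (11.1 ± 3.74). In the same order of replicates, starved mutants had 4.78, 2.23 and 3.28 CPM (3.43 ± 1.28). Nutrient-rich mutants had 47.0, 114 and 89.4 CPM (83.4 ± 33.8). The 3 groups did not overlap at any point, with the starved mutant lowest and the nutrient-rich mutant highest.

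Ferritin subunit precursor Dapma7bEVm010891t1, the most abundant ferritin, had the same order of group means. Its CPM was 245, 373 and 191 in starved wild type replicates 1 to 3 (269.6 ± 93.4). It was 143, 60.9 and 95.9 in starved mutant replicates 1 to 3 (100.1 ± 41.4), and 405, 334 and 779 in nutrient-rich mutant replicates 1 to 3 (506 ± 239). Every starved mutant library lay below every other library, while starved wild type and nutrient-rich mutant overlapped.

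Ferritin 3-like Dapma7bEVm007877t1 had 25.2, 41.4 and 14.8 CPM in starved wild type replicates 1 to 3 (27.2 ± 13.4). Its level was 19.1, 9.55 and 12.6 CPM in starved mutant replicates 1 to 3 (13.8 ± 4.90), and 43.6, 97.3 and 69.0 in nutrient-rich mutant replicates 1 to 3 (69.9 ± 26.9). All 3 nutrient-rich mutant libraries lay above all starved libraries, and the starved groups overlapped. This gene ID has another feature with 0 to 34 reads a library, which is not part of these values.

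Ferritin 3-like Dapma7bEVm005779t1 had the opposite pattern, with high levels in starved daphnids of either line. It had 142, 142 and 140.2 CPM in starved wild type replicates 1 to 3 (141 ± 1.09) and 153, 119.9 and 129.8 in starved mutant replicates 1 to 3 (134 ± 16.9). Nutrient-rich mutant replicates 1 to 3 had 76.3, 23.1 and 61.8 CPM (53.8 ± 27.5). All nutrient-rich mutant libraries lay below all starved libraries. The ratio of the highest to the lowest library was 1.02 within starved wild types and 3.30 within nutrient-rich mutants, where the library that stands apart was lowest.

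The other ferritin 3-like genes varied little. Dapma7bEVm015553t1 had 40.7, 40.6 and 43.3 CPM in starved wild type replicates 1 to 3, 36.03, 36.4 and 40.3 in starved mutant replicates 1 to 3, and 35.4, 22.4 and 41.8 in nutrient-rich mutant replicates 1 to 3. Dapma7bEVm001658t1 had 18.9 to 27.4 CPM in starved wild types, 19.0 to 24.4 in starved mutants and 12.3 to 21.6 in nutrient-rich mutants. Dapma7bEVm001658t1 overlapped between all pairs of groups.

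Starved mutants were set against starved wild types to ask which ferritins differ between the lines when food is scarce. Of the 6 tested ferritins, 1 was lower in starved mutants and 0 were higher, where 4.24% of all tested features were called lower and 2.92% higher (7.16% in either direction). At an unadjusted p under 0.05, 3 ferritins differed, a count that was not taken over all features. DESeq2 called 2 ferritins, where it called 1328 of 18675 features lower and 788 higher. By limma-voom 3 were called, where it called 2507 features lower and 1674 higher. Heavy chain Dapma7bEVm005357t1 was the gene that fell, with a log2 fold change of -1.70 (SE 0.42, 95% interval -2.65 to -0.75, edgeR adjusted p = 0.0436), or 3.24-fold lower. Ferritin subunit precursor Dapma7bEVm010891t1 had a log2 fold change of -1.43 (SE 0.41, interval -2.37 to -0.49), and with an edgeR adjusted p of 0.0752 it did not pass the test.

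Dapma7bEVm007877t1 had a log2 fold change of -0.98 (interval -1.95 to -0.01, edgeR adjusted p = 0.248) between the starved groups. The other ferritin 3-like genes had log2 fold changes close to 0. It was -0.08 (interval -0.86 to 0.71) for Dapma7bEVm005779t1, -0.05 (-0.57 to 0.47) for Dapma7bEVm001658t1 and -0.14 (-0.61 to 0.32) for Dapma7bEVm015553t1. All 6 estimates were below 0, with a median of -0.56 against -0.00 over all features, but those of Dapma7bEVm005779t1, Dapma7bEVm015553t1 and Dapma7bEVm001658t1 came out as high as 0.02, 0.02 and 0.09 in the alternatives. In 3 of the 6 genes (Dapma7bEVm005357t1, Dapma7bEVm010891t1 and Dapma7bEVm015553t1) every starved mutant library lay below every starved wild type library, where 21.1% of all features were separated in that direction, 20.1% in the other and 41.2% in either.

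The call of Dapma7bEVm005357t1 between the starved groups rested on single libraries. Its edgeR adjusted p was 0.139 without starved wild type replicate 1, 0.160 without starved wild type replicate 2, 0.172 without starved mutant replicate 2, 0.165 without starved mutant replicate 3 and 0.0671 without nutrient-rich mutant replicate 3, which enters through the common spread. Dapma7bEVm010891t1 passed the test in 6 of 19 alternatives, among them the fit without nutrient-rich mutant replicate 2 (adjusted p = 0.0358) and without starved mutant replicate 1 (0.0477).

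**Figure D2:**
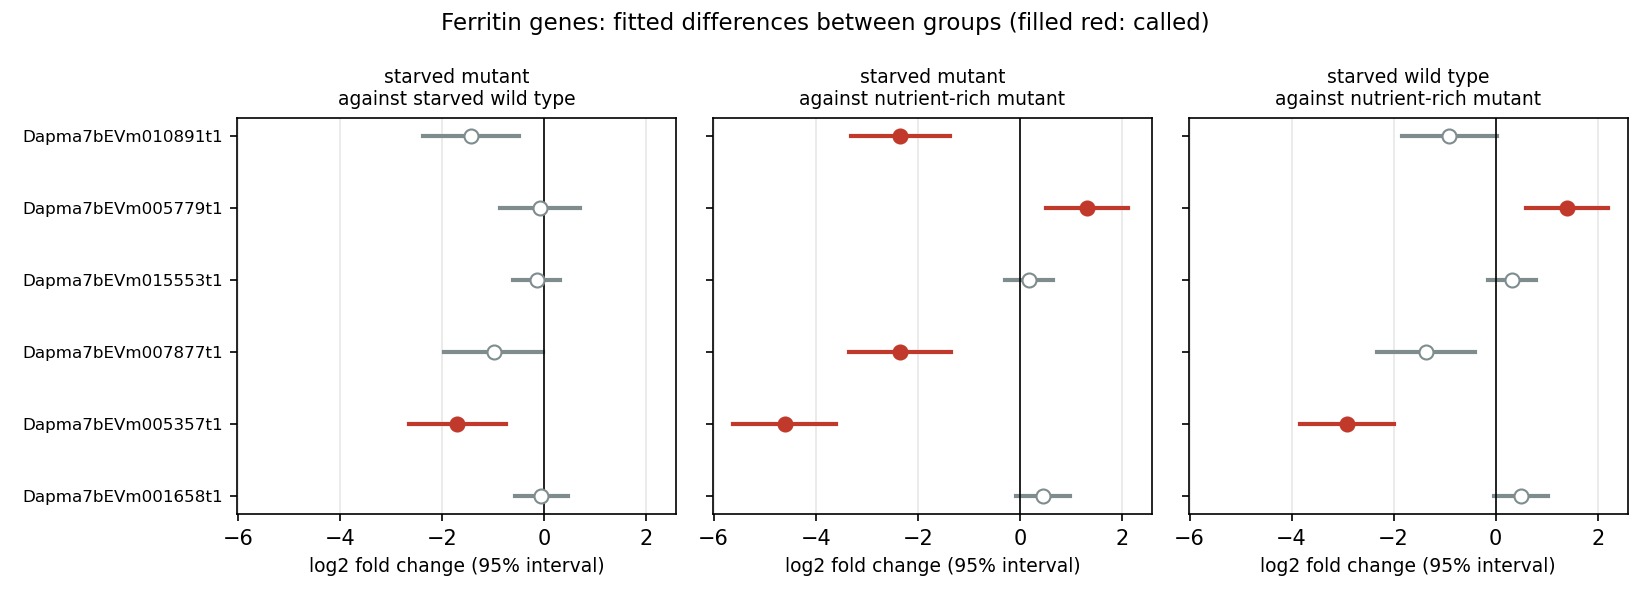
Fitted log2 fold change of the 6 tested ferritin genes (points) with 95% intervals (lines) in 3 comparisons of the groups, with called genes filled red and others open. The heavy chain Dapma7bEVm005357t1 is called lower in each panel (-1.70, -4.61 and -2.91), and Dapma7bEVm005779t1 lies on the other side of 0 in the panels against the nutrient-rich mutant (1.32 and 1.39).

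Starved mutants were then set against nutrient-rich mutants, which asks how the ferritins differ with food in the same line. Of the 6 tested ferritins 3 were lower in the starved condition and 1 was higher, where 12.0% of all tested features were called lower and 11.1% higher (23.1% in either direction). Heavy chain Dapma7bEVm005357t1 fell by 4.61 on the log2 scale (SE 0.45, 95% interval -5.62 to -3.60, edgeR adjusted p = 0.000241), which is 24.4-fold. Ferritin subunit precursor Dapma7bEVm010891t1 fell by 2.34 (SE 0.43, interval -3.30 to -1.37, edgeR adjusted p = 0.00426). Ferritin 3-like Dapma7bEVm007877t1 fell by 2.35 (SE 0.44, interval -3.34 to -1.35, edgeR adjusted p = 0.00481). These 3 genes were 5.06-fold to 24.4-fold lower in starved than in nutrient-rich mutants.

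In contrast, ferritin 3-like Dapma7bEVm005779t1 rose in starved mutants with a log2 fold change of 1.32 (SE 0.35, interval 0.52 to 2.12, edgeR adjusted p = 0.0241), or 2.49-fold. Dapma7bEVm001658t1 had 0.45 (interval -0.08 to 0.97, edgeR adjusted p = 0.201) and Dapma7bEVm015553t1 had 0.18 (interval -0.29 to 0.64, edgeR adjusted p = 0.582), and neither passed the test. The median of the 6 log2 fold changes was -1.08, against -0.07 over all features. The groups did not overlap for the 3 genes called lower and the 1 called higher, as for 20.3% of all features in the lower direction, 20.0% in the higher and 40.3% in either.

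Nutrient-rich mutant replicate 2 did not carry these calls. Without it, the log2 fold change was -4.33 for Dapma7bEVm005357t1 (edgeR adjusted p = 0.000178), -2.57 for Dapma7bEVm010891t1 (0.00224), -2.04 for Dapma7bEVm007877t1 (0.00694) and 0.95 for Dapma7bEVm005779t1 (0.00105). The call of Dapma7bEVm005779t1 was lost without starved mutant replicate 1 (adjusted p = 0.069) and without starved mutant replicate 3 (0.0648).

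Between the starved wild type and the nutrient-rich mutant, line and food both differ and cannot be told apart. This comparison completes the order of the 3 groups, and it shares its libraries with the others. Of the 6 ferritins 1 was lower and 1 higher in starved wild types, where 6.28% of all features were called lower and 7.67% higher (13.9% in either direction). Heavy chain Dapma7bEVm005357t1 fell by 2.91 on the log2 scale (SE 0.41, interval -3.83 to -1.99, edgeR adjusted p = 0.00282), or 7.51-fold, and by 2.63 without nutrient-rich mutant replicate 2 (0.00209). Ferritin 3-like Dapma7bEVm005779t1 rose by 1.39 (SE 0.35, interval 0.59 to 2.19, edgeR adjusted p = 0.0304), and by 1.02 without nutrient-rich mutant replicate 2 (0.00152).

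Dapma7bEVm007877t1 had a log2 fold change of -1.36 in the same comparison (SE 0.42, edgeR adjusted p = 0.0593). It was, with Dapma7bEVm005357t1, 1 of 2 ferritins whose starved wild type libraries all lay below the nutrient-rich ones, and Dapma7bEVm005779t1 was the 1 whose libraries all lay above, where 18.8% and 20.7% of all features were separated in these directions and 39.5% in either. Dapma7bEVm010891t1 had -0.91 (interval -1.83 to 0.02, edgeR adjusted p = 0.157). For Dapma7bEVm001658t1 it was 0.50 (interval -0.03 to 1.03) and for Dapma7bEVm015553t1 0.32 (interval -0.15 to 0.79). The median of the 6 genes was -0.29, against -0.02 over all features. The call of Dapma7bEVm005779t1 was lost without any 1 of starved wild type replicates 1 to 3 (adjusted p = 0.0899, 0.0881 and 0.0837) and without starved mutant replicate 3 (0.0582).

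The sum over all ferritins was lowest in the starved mutant. Summed CPM was 488, 639 and 415 in starved wild type replicates 1 to 3, 376, 254 and 305 in starved mutant replicates 1 to 3, and 623, 603 and 1063 in nutrient-rich mutant replicates 1 to 3. Every starved mutant library lay below every other library, while starved wild type and nutrient-rich mutant overlapped. Group means were 514 ± 114, 312 ± 61.2 and 763 ± 259.9 CPM.

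Summed RPKM, which also accounts for feature length and is scaled without TMM factors, was 535, 655 and 456.5 in starved wild type replicates 1 to 3, 455.8, 319 and 385 in starved mutant replicates 1 to 3, and 562, 399 and 919.8 in nutrient-rich mutant replicates 1 to 3. Here the starved mutant overlapped with the nutrient-rich mutant and lay just below the starved wild type. The overlap rested on nutrient-rich mutant replicate 2, and without it the lowest nutrient-rich mutant library had 562, above the starved mutants. Group means were 549 ± 100.3, 386 ± 68.5 and 627 ± 266 RPKM. The sums were not tested.

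Shares of some genes in the ferritin mRNA separated all 3 groups. Ferritin subunit precursor Dapma7bEVm010891t1 held 38.9% to 52.0% of the summed ferritin RPKM in starved wild types, 18.6% to 31.5% in starved mutants and 52.5% to 69.3% in nutrient-rich mutants. Ferritin 3-like Dapma7bEVm005779t1 held 26.7% to 38.3% in starved wild types, 44.9% to 49.8% in starved mutants and 4.74% to 15.1% in nutrient-rich mutants. Heavy chain Dapma7bEVm005357t1 held 1.67% to 2.53%, 0.828% to 1.23% and 8.18% to 21.3% in these groups. The 3 groups did not overlap in any of these shares, nor in that of Dapma7bEVm001658t1. Between starved wild types and starved mutants, the shares of Dapma7bEVm015553t1 (10.2% to 14.7% and 14.4% to 20.4%) overlapped. So did those of Dapma7bEVm007877t1 (2.55% to 4.86% and 2.55% to 3.65%). Shares of a library add up to a fixed total, so that a higher share of one gene goes with a lower share of others, and they were not tested.

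**Figure D3:**
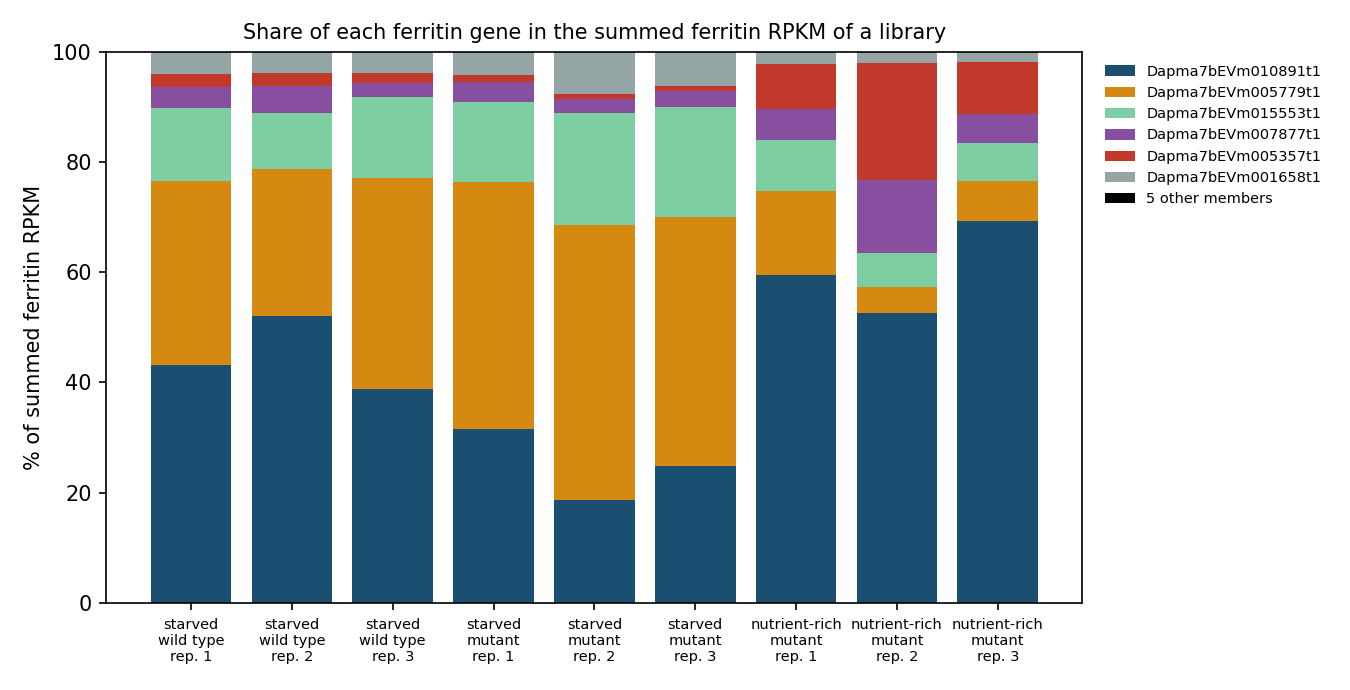
Share in percent of each ferritin gene in the summed ferritin RPKM of a library, 1 stacked bar for each of the 9 libraries. Dapma7bEVm005779t1 (orange) holds 44.9% to 49.8% in starved mutants and 4.74% to 15.1% in nutrient-rich mutants, and heavy chain Dapma7bEVm005357t1 (red) is widest in nutrient-rich mutant replicate 2 with 21.3%.

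Ratios of reads between ferritins within a library do not depend on how libraries are scaled. The pairs of genes were chosen with earlier results of these data known. Their ratios restate the levels above, and they were not tested. For each read of heavy chain Dapma7bEVm005357t1 there were 10.03 to 20.2 reads of ferritin 3-like Dapma7bEVm005779t1 in starved wild types, 31.9 to 53.7 in starved mutants and 0.203 to 1.63 in nutrient-rich mutants. The 3 ranges did not overlap. The ratio of Dapma7bEVm005779t1 to Dapma7bEVm010891t1 was 0.382 to 0.736 in starved wild types, 1.07 to 1.97 in starved mutants and 0.0693 to 0.188 in nutrient-rich mutants, again without overlap.

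The ratio of Dapma7bEVm010891t1 to heavy chain Dapma7bEVm005357t1 was similar in the starved groups. It was 20.2 to 27.5 in starved wild types and 27.3 to 30.0 in starved mutants, ranges that overlapped, and 2.93 to 8.72 in nutrient-rich mutants. Each nutrient-rich mutant library thus held fewer reads of Dapma7bEVm010891t1 for each heavy chain read than any starved library. The ratio of the ferritin 3-like genes Dapma7bEVm007877t1 to Dapma7bEVm001658t1 was 0.784 to 1.51 in starved wild types, 0.391 to 1.005 in starved mutants and 2.97 to 7.90 in nutrient-rich mutants.

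The order of the libraries within a group was shared by some ferritins only. In CPM, Dapma7bEVm005357t1, Dapma7bEVm007877t1 and Dapma7bEVm010891t1 were each highest in replicate 2 and lowest in replicate 3 of the starved wild type, and highest in replicate 1 and lowest in replicate 2 of the starved mutant. Dapma7bEVm005779t1 had the latter order in the starved mutant, while its starved wild type libraries were nearly equal. Dapma7bEVm001658t1 had the former order in the starved wild type but was highest in replicate 2 and lowest in replicate 1 of the starved mutant. Dapma7bEVm015553t1 was highest in replicate 3 of both starved groups. Within nutrient-rich mutants, Dapma7bEVm005357t1 and Dapma7bEVm007877t1 were highest in replicate 2, Dapma7bEVm005779t1 in replicate 1 and the other tested ferritins in replicate 3.

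The genes whose log2 CPM over the 9 libraries was most like that of heavy chain Dapma7bEVm005357t1, among 8325 named genes with a mean of at least 5 CPM, were Aminopeptidase N Dapma7bEVm000809t1 (Pearson r = 0.997), carboxypeptidase B-like Dapma7bEVm001565t1 (0.996) and apolipoprotein D-like Dapma7bEVm016956t1 (0.995). Aminopeptidase N had 156 ± 46.7 CPM in starved wild types, 62.3 ± 18.8 in starved mutants and 729 ± 180.3 in nutrient-rich mutants. Those most like Dapma7bEVm010891t1 were trypsin Dapma7bEVm009695t1 (0.991), Monoglyceride lipase Dapma7bEVm010403t1 (0.988) and beta-galactosidase-1-like protein 2 Dapma7bEVm000112t1 (0.988). The libraries form 3 groups, so these values describe mainly the order of the groups and are given without a test.

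Summed levels of some marker lists moved with some of these genes. The summed CPM of 88 trypsin and chymotrypsin genes, enzymes of the gut of which 3 had no reads, was 8333 to 14579.8 in starved wild types, 4172 to 7447 in starved mutants and 9591 to 14095 in nutrient-rich mutants. That of 22 vitellogenin genes, which encode yolk precursors, was 36751 to 47577, 16921 to 18449.8 and 73634 to 98417, with none at 0. Both sums were lowest in starved mutants, as were Dapma7bEVm005357t1 and Dapma7bEVm010891t1. Single gut genes differed in direction. Against starved wild types, 7 of 62 tested gut genes were lower in starved mutants and 1 higher, beside 4.24% and 2.92% of all features. Against nutrient-rich mutants, 20 were lower and 4 higher, beside 12.0% and 11.1%. Of 21 tested vitellogenin genes, 11 and 14 were lower in these comparisons and 0 higher. The summed CPM of 13 hemocyte genes, none at 0, was 1174 to 1358 in starved wild types, 727 to 928 in starved mutants and 1092 to 1199 in nutrient-rich mutants. Of these 13 genes, all tested, 5 were lower in starved mutants than in starved wild types, beside 4.24% of all features. Against nutrient-rich mutants 3 were lower, beside 12.0%, and 0 were higher in either comparison.

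Against the nutrient-rich mutant, the sums of the muscle and neuron lists moved in the direction of Dapma7bEVm005779t1, higher in starved libraries. The summed CPM of 28 muscle genes, 5 of them without reads, was 12284 to 13527 in starved wild types, 13195 to 13901.5 in starved mutants and 8067 to 11662 in nutrient-rich mutants. That of 72 neuron and eye genes, 5 of them without reads, was 2273 to 2445, 2575 to 2779.8 and 894 to 1482. Against nutrient-rich mutants, 7 of 21 tested muscle genes were higher in starved mutants and 1 lower. Of 50 tested neuron and eye genes 24 were higher and 0 lower there, beside 11.1% and 12.0% of all features. Between the starved groups the neuron and eye sum was higher in mutants, with 1 of 50 tested genes called higher and 1 lower, beside 2.92% and 4.24% of all features. Dapma7bEVm005779t1 had a log2 fold change of -0.08 there. The summed CPM of 13 germ line genes, 1 of them without reads, was 686 to 725, 839 to 949.6 and 729.7 to 1209.8 in the same order of groups. This sum was higher in starved mutants than in starved wild types, where heavy chain Dapma7bEVm005357t1 was lower. Of 11 tested germ line genes, 0 were called between the starved groups, beside 7.16% of all features. The part of any of these lists in the ferritin differences was not tested.

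Ferritins act within a wider iron economy, and other iron genes were described with lists built from gene names. Iron uptake and transport held 16 genes, all tested. Between the starved groups 1 of these was higher and 0 lower in mutants (median log2 fold change -0.17). Over all features 2.92% were called higher and 4.24% lower. Without nutrient-rich mutant replicate 2, 1 and 3 of the list were called, beside 6.23% and 7.6% of all features. Between starved and nutrient-rich mutants 3 were higher and 4 lower (median -0.24), where 11.1% and 12.0% of all features were called in these directions. Without that library they were 5 and 5, beside 14.4% and 14.1% of all features. A ferric-chelate reductase 1 homolog, Dapma7bEVm000512t1, of a family whose enzymes reduce ferric iron for uptake, had 63.7 to 75.8 CPM in starved wild types, 168 to 179 in starved mutants and 16.8 to 26.8 in nutrient-rich mutants. It rose in starved mutants against starved wild types (log2 fold change 1.33, SE 0.17, edgeR adjusted p = 0.00262) and against nutrient-rich mutants (2.94, SE 0.18, 3.92e-05). The homologs of the same name differed in direction. In starved against nutrient-rich mutants Dapma7bEVm010129t1 was also higher (1.23, edgeR adjusted p = 0.0144), whereas Dapma7bEVm018631t1 (-2.70, 0.00762) and Dapma7bEVm010002t1 (-1.66, 0.0025) were lower, and Dapma7bEVm003218t1 was not called. Malvolio isoform X2 Dapma7bEVm010045t1, a metal carrier that moves iron and manganese in the fly, was lower in starved than in nutrient-rich mutants (-1.55, edgeR adjusted p = 0.00208). The other gene of that name, Dapma7bEVm022492t1 (-0.57, 0.372), and Malvolio-like Dapma7bEVm002261t1 (-0.22, 0.717) were not called there. Transferrin Dapma7bEVm005481t1, the iron carrier of body fluids, had log2 fold changes of -0.22 (edgeR adjusted p = 0.753) between the starved groups and 0.25 (0.549) between the mutant groups, and was not called. Nor was Melanotransferrin Dapma7bEVm002180t1, a membrane-bound relative, with -0.10 and -0.25.

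The iron sensing list held 4 genes, of which 3 were tested, and the other, a mitochondrial aconitate hydratase (Dapma7bEVm022037t1), had 0 reads in all libraries. Cytoplasmic aconitate hydratase-like Dapma7bEVm001713t1 belongs to the family whose members act as iron regulatory protein on ferritin mRNA when they lack their iron-sulfur cluster. It had 175 to 201 CPM in starved wild types, 143 to 172 in starved mutants and 207 to 286 in nutrient-rich mutants. It was lower in starved than in nutrient-rich mutants (log2 fold change -0.75, SE 0.16, edgeR adjusted p = 0.0081), a call that was lost with scaling by library totals (-0.41, adjusted p = 0.179) and on RPKM (0.296 and 0.298). Mitochondrial aconitate hydratase Dapma7bEVm002181t1 and F-box/LRR-repeat protein 5-like Dapma7bEVm001473t1, which is named after a mammalian protein that marks an iron regulatory protein for decay, were not called.

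Haem synthesis and handling held 20 genes, of which 18 were tested. Between the starved groups 2 were higher and 3 lower in mutants (median log2 fold change -0.54), against 2.92% and 4.24% of all features. Without nutrient-rich mutant replicate 2 they were 2 and 6, against 6.23% and 7.6% of all features. Between starved and nutrient-rich mutants 2 were higher and 8 lower (median -0.67), against 11.1% and 12.0% of all features. Without that library they were 2 and 9, against 14.4% and 14.1% of all features. Heme-binding protein 2-like Dapma7bEVm001221t1 had 368 to 444 CPM in starved wild types, 5.47 to 20.6 in starved mutants and 95.4 to 315 in nutrient-rich mutants. Its log2 fold change in starved mutants was -5.12 (SE 0.61, edgeR adjusted p = 0.00205) against starved wild types and -3.96 (SE 0.58, 0.00156) against nutrient-rich mutants. Heme-binding protein 2 Dapma7bEVm002233t1 moved the other way, with 23.2 to 30.6 CPM in starved wild types, 44.7 to 75.3 in starved mutants and 8.05 to 16.0 in nutrient-rich mutants. It was higher in starved mutants against nutrient-rich mutants (log2 fold change 2.24, SE 0.28, edgeR adjusted p = 0.000779) and against starved wild types (1.13, SE 0.27, 0.038), but the latter call was lost without any 1 of 5 starved libraries (each starved wild type replicate and starved mutant replicates 2 and 3, 0.103 to 0.154). Another heme-binding protein 2-like gene, Dapma7bEVm000383t1, was not called. Its log2 fold change was -0.13 (edgeR adjusted p = 0.784) between the starved groups and -0.15 (0.59) between the mutant groups. A further gene of that name, Dapma7bEVm006100t1, had 64 reads in all and was not tested. Ferrochelatase Dapma7bEVm002381t1, which inserts iron into the haem ring, had a log2 fold change of -1.11 (SE 0.28, edgeR adjusted p = 0.0468) between the starved groups, a call that was lost in 9 of 19 alternatives, in 6 of which 1 library was left out (each starved wild type replicate, starved mutant replicates 2 and 3, and nutrient-rich mutant replicate 3, 0.0678 to 0.195). The other ferrochelatase, Dapma7bEVm027702t1, had -0.52 (0.163) and was not called. Over these lists and iron-sulfur cluster assembly, the 3 genes called lower between the starved groups became 9 without nutrient-rich mutant replicate 2, 5 without starved mutant replicate 1, and 1 without starved wild type replicate 1 or 2 or starved mutant replicate 2 or 3. The share of all features called lower also moved, from 4.24% to 7.6%, 5.42% and 1.48% to 2.03% in these refits.

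Of 10 tested genes of iron-sulfur cluster assembly edgeR called 0 between the starved groups, beside 7.16% of all features. DESeq2 called 0 of them and limma-voom 0, and 0 had an unadjusted p under 0.05. Between the mutant groups 2 were lower when starved, where 12.0% of all features were lower, or 1 without nutrient-rich mutant replicate 2, beside 14.1%. The medians were -0.06 between the starved groups and -0.10 between the mutant groups. Of the 22 hemoglobin genes, oxygen carriers of the daphnid hemolymph, 10 were tested, and 5 were lower in starved than in nutrient-rich mutants (median -1.44), again beside 12.0% of all features. Without nutrient-rich mutant replicate 2, 8 of 11 tested hemoglobin genes were lower, beside 14.1% of all features. Between the starved groups edgeR called 0 hemoglobin genes, beside 7.16% of all features. DESeq2 called 0, where it called 788 features higher and 1328 lower. By limma-voom 1 was called, where it called 1674 features higher and 2507 lower. At an unadjusted p under 0.05 1 hemoglobin gene differed.

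**Figure D4:**
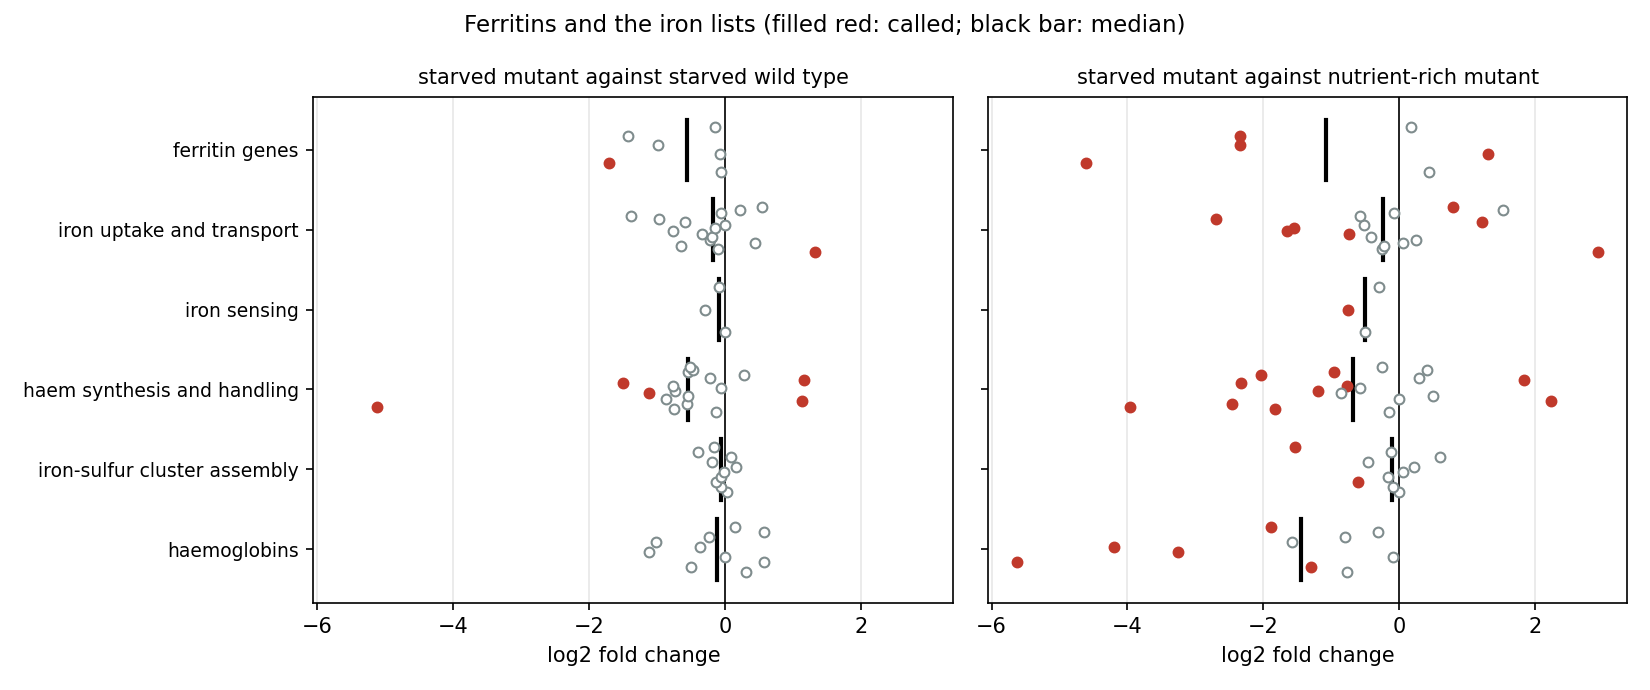
Log2 fold change of each tested gene (points, red where called) of the ferritins and of 5 iron lists in 2 comparisons, with a black bar at the median of the list. Between starved and nutrient-rich mutants (right) the medians run from -1.44 for hemoglobins and -1.08 for ferritins to -0.10 for iron-sulfur cluster assembly.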

How the data were processed

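RNA-seq of 9 libraries was analyzed. The authors mapped paired reads to the D. magna genome of wFleaBase in CLC Genomics Workbench and deposited, for each of 47109 features, the count of total gene reads and the RPKM. Of 242776 values with reads, 14643 have a deposited RPKM of 0. The count column of nutrient-rich mutant replicate 1 is named differently from its RPKM column. Columns with the authors' fold changes and FDR p-values were not used, and 0 columns of sample values were left out.

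The deposited counts went into edgeR 4.0.16 under R 4.3.3 (filterByExpr over 3 groups, TMM, quasi-likelihood F-test, 1 fit of 9 libraries, Benjamini-Hochberg adjustment). The fit was tested on simulated data. TMM factors were 1.01 to 1.13 in starved libraries and 0.749 to 0.928 in nutrient-rich ones. Intervals of fold changes are 95% intervals. Log2 CPM for likeness had a prior count of 2. Whether same-numbered replicates share more than a number is not given. DESeq2 1.42.0 and limma 3.58.1 (voom on counts, trend on log2 RPKM with a pseudocount of 1 or 0.1), other scalings, filters and samples were the 19 alternatives. Members, gene lists and thresholds were chosen with earlier results of these data known. Named are all ferritins, iron sensing genes, transferrins and ferrochelatases, and, from the up to 10 called genes of largest change in each other list, a few picked after their values were seen. The ferric-chelate reductase homologs, Malvolio genes and heme-binding protein genes are named in full. Gene sequences were not used here.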

Additional observations from a re-analysis of the deposited data

How the results depend on the processing

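Each ferritin comparison was refitted under 19 alternatives. For the 6 tested genes and 3 comparisons, 311 of the refitted values stayed on their side of the threshold, 15 passed it anew, 16 lost it and 0 changed direction with a call. Between starved and nutrient-rich mutants, the count of ferritins called lower was 3 in all 19 alternatives, and Dapma7bEVm005357t1 (log2 fold change -4.93 to -3.84), Dapma7bEVm010891t1 (-2.69 to -1.89) and Dapma7bEVm007877t1 (-2.67 to -1.83) were called in each. The 1 ferritin called higher there became 0 with only the groups compared (Dapma7bEVm005779t1, adjusted p = 0.0673) and 2 on log2(RPKM + 1), and 0 to 2 with 1 library left out. Between the starved groups the 1 ferritin called lower became 2 by DESeq2, 3 by limma-voom, 2 with every feature of at least 1 count, 2 with only the groups compared, 0 on log2(RPKM + 1) or log2(RPKM + 0.1) and 0 to 2 with 1 library left out. Dapma7bEVm005357t1 then had adjusted p from 0.00171 to 0.172 and log2 fold changes from -2.01 to -1.37. Between the starved wild type and the nutrient-rich mutant, the 1 called lower became 2 by DESeq2, 3 by limma-voom, 2 with every feature of at least 1 count and 1 to 2 with 1 library left out. The 1 called higher became 0 with only the groups compared and 0 to 2 with 1 library left out. Over all features, 329 to 1593 were called lower there (main 1173) in the refits other than leaving 1 library out. In the same refits 892 to 2123 were called higher (main 1432). The cause of these changes was not tested. Same-numbered libraries correlated at -0.10 to 0.18 in their deviations, over 0.1 in 2 of 9 pairs, and with the replicate number as a block 0 ferritins were called between the starved groups (Dapma7bEVm005357t1, adjusted p = 0.0944).

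Over all features, the calls between the starved groups (546 higher, 791 lower) were 1674 and 2507 by limma-voom, 788 and 1328 by DESeq2, 1193 and 1400 with only those groups, 531 and 489 on log2(RPKM + 0.1), 410 and 626 with the block, and 220 to 1206 and 285 to 1472 with 1 library left out. Scaling by library totals moved the median log2 fold change of all features by 0.1 between the starved groups, 0.355 between the mutant groups and 0.255 between starved wild types and nutrient-rich mutants (the third comparison). It split the calls between the mutant groups into 3446 higher and 1138 lower (main 2078 and 2241), those between the starved groups into 626 and 589, and those of the third comparison into 2123 and 448 (main 1432 and 1173). On log2(RPKM + 1) these splits were 3485 and 913, 693 and 582, and 2113 and 357, and on log2(RPKM + 0.1) 3522 and 949 between the mutant groups and 1921 and 329 in the third. With only the groups compared, the third gave 892 and 658, and it gave 630 to 1724 and 440 to 1488 with 1 library left out. The iron lists without hemoglobins, with 3 genes lower between the starved groups, had 1 to 13 over the alternatives, and between the mutant groups 7 to 16 lower (main 15) and 4 to 10 higher (main 5). For Dapma7bEVm015553t1 the log2 fold change between the mutant groups ran from -0.04 to 0.67. At 29 to 51 reads a library in the starved mutant, Dapma7bEVm005357t1 was the called ferritin with the lowest depth, and the 5 ferritins under the count filter were not tested.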
